A study of Mus musculus with 21 samples.

Results

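The stearoyl desaturases (Scd1, Scd2, Scd3 and Scd4) and the fatty acid elongases Elovl1, Elovl2, Elovl3, Elovl5, Elovl6 and Elovl7 were followed in whole livers of mice that lost the transcription factor gene Gata4 in liver endothelium. The genes were taken by their symbol in the array's annotation, and all 10 were found among the 25428 genes of the table, each as a single value per liver. They were chosen by a rule that drew on their measured values in this same comparison of genotypes, so their genotype differences are given as a description and carry no test.

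Stearoyl desaturases sit in the endoplasmic reticulum and put a double bond into saturated fatty acyl-CoA, turning stearate into oleate and palmitate into palmitoleate. Elongases carry out the condensing step that lengthens an acyl-CoA with carbon from malonyl-CoA, and each has its own choice of substrate. In mouse liver Scd1 is the main desaturase, Scd2 is best known from brain and from the young animal, and lipogenic members such as Scd1 and Elovl6 are known targets of the sterol and carbohydrate response factors.

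The 10 knockout livers came from mice in which floxed Gata4 was combined with Clec4g-icre, a Cre transgene active in the sinusoidal endothelium, and the 11 control livers came from siblings labelled wild type. All mice were on a standard diet, with 1 array per animal. Sex and age are not in the labels, and the sources used here do not say if the siblings had the transgene. The sample numbers form 2 runs of consecutive values, called run 1 (4 knockout and 5 control livers) and run 2 (6 knockout and 6 control livers) here, and what sets the runs apart is not stated.

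Values were log2 RMA signals, on which a difference of 1 is a doubling of signal, and they ran from 2.14 to 13.8 with a median of 3.75. A gene's own values can be compared between livers, but the levels of different genes come from different probes and were not compared. Each array correlated with the mean of its own genotype and run at r = 0.986 or more, with a median of 0.993. Gata4 itself averaged 6.53 ± 0.23 in knockout livers and 6.73 ± 0.29 in control livers (log2, SD, n = 10 and 11), a difference of -0.19 ± 0.10 (SE) that was not past the threshold of 0.05 (limma, p-values adjusted by Benjamini-Hochberg over all genes, adjusted p = 0.26). Whole liver holds many cells besides the endothelium that the driver targets, and in such bulk samples fewer cells of a type and less RNA per cell cannot be told apart. Transcripts of the Y-linked genes Eif2s3y, Kdm5d and Uty lay between 2.32 and 2.98 in all 21 livers, and Xist lay between 10.45 and 10.90 in knockout livers and between 10.46 and 10.97 in control livers.

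Scd2 was the desaturase that differed between the genotypes. In knockout livers Scd2 had a lowest log2 value of 6.72, a median of 9.84 and a highest value of 11.19, and in control livers these values were 5.15, 6.89 and 7.81. Of the 10 knockout livers, 9 lay above the highest control, and the exception was replicate 2, which lay within the range of the controls. How many of all genes had 9 knockout livers above every control was not computed. The mean was 9.49 ± 1.43 in knockout livers and 6.93 ± 0.88 in control livers (SD, n = 10 and 11), a difference of 2.53 ± 0.47 (log2, SE) or 5.79-fold, with a 95% confidence interval from 1.55 to 3.52. The difference was 3.08 ± 0.73 in run 1 and 2.13 ± 0.63 in run 2. In run 2 the ranges of the genotypes did not overlap, with 8.13 to 11.18 in knockout livers and 6.71 to 7.81 in control livers, a separation in this direction that 1.38% of all genes had in run 2. In run 1 knockout livers ranged from 6.72 to 11.19 and control livers from 5.15 to 7.67, overlapping through replicate 2. Without that liver the difference over both runs was 2.85.

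Scd1, the neighbouring gene for the main hepatic desaturase, had a high signal in both genotypes. Its lowest, median and highest log2 values were 11.41, 12.72 and 13.04 in knockout livers and 10.44, 12.89 and 13.16 in control livers, so the groups overlapped over most of their range. The means were 12.62 ± 0.47 in knockout livers and 12.68 ± 0.76 in control livers (SD), and the difference was -0.09 ± 0.25 (SE), with a 95% interval from -0.61 to 0.43. This interval excludes neither a modest decrease nor a modest increase. The sign was not the same in both runs, with 0.11 in run 1 and -0.24 in run 2. It also rested on single livers, since the difference was 0.03 without knockout replicate 2 and -0.29 without control replicate 5, the livers with the lowest Scd1 of their groups.

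**Figure D1:**
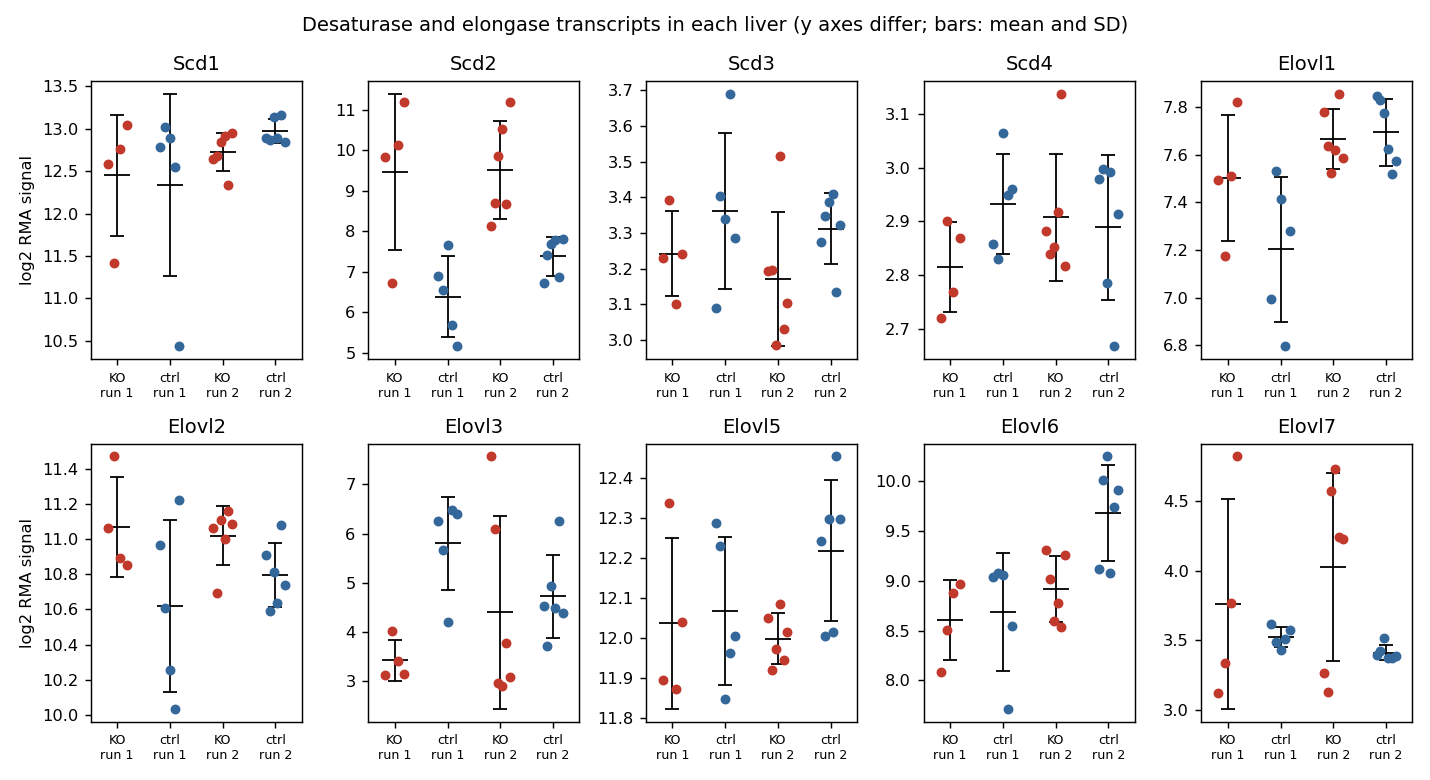
Log2 RMA signal of each of the 10 genes (y axes differ between panels) in knockout (red) and control (blue) livers of run 1 and run 2, with 1 point per liver and bars for the mean and SD. Scd2 points of knockout livers lie above those of control livers except for replicate 2 at 6.72, Elovl7 points of knockout livers split to both sides of the controls, and Scd1 points overlap.

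Setting the pair side by side within each liver removes what moves both by the same amount. Scd2 varied more within genotype and run than Scd1 (SD 1.17 against 0.62), so shared movement of unequal size stays in the difference. Scd2 minus Scd1 was -3.12 ± 1.05 in knockout livers and -5.75 ± 0.62 in control livers (log2, SD, n = 10 and 11). It ranged from -4.70 to -1.77 in knockout livers and from -6.88 to -5.03 in control livers, with no overlap between the genotypes. The pair was set up with the genotype contrast known, so nothing is read from this separation. How often other pairs of genes separate in this way was not computed. Knockout replicate 2, whose Scd2 lay among the controls, also had the lowest Scd1 of the knockout livers, and its difference of -4.70 lay above every control. The genotypes differed by 2.62 on this measure with the run term, by 2.97 in run 1 and by 2.37 in run 2. Because the values of the genes come from different probes, only the shift between genotypes can be read, and not which transcript is more abundant.

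**Figure D2:**
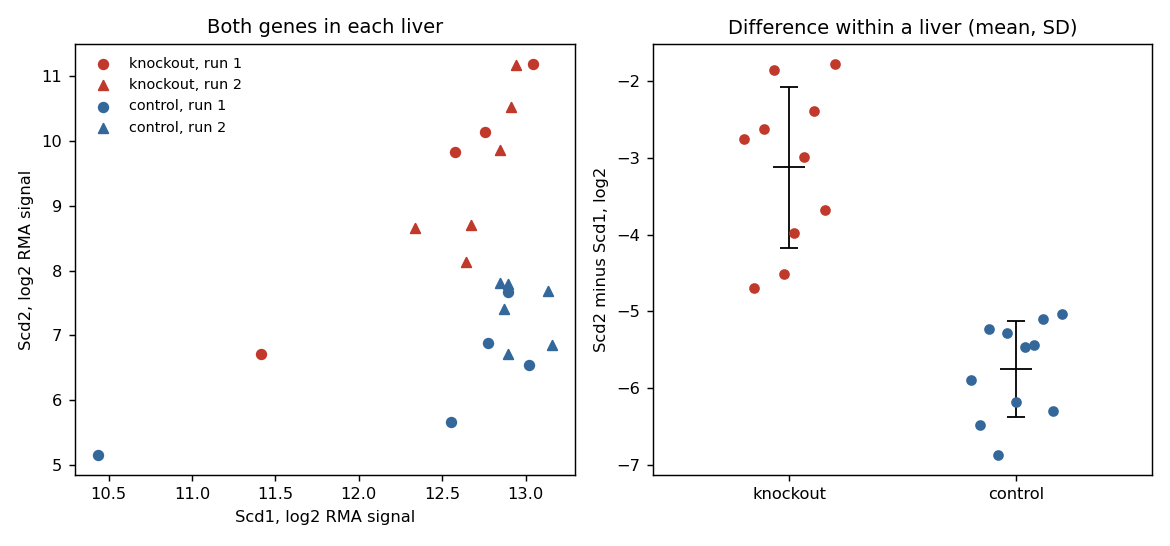
Left, log2 RMA signal of Scd2 against that of Scd1, 1 point per liver, with circles for run 1 and triangles for run 2. Right, Scd2 minus Scd1 within each liver with the mean and SD; knockout livers lie between -4.70 and -1.77 and control livers between -6.88 and -5.03.

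The 4 desaturase genes are neighbours on mouse chromosome 19, in the order Scd3, Scd2, Scd4 and Scd1 in the RefSeq annotation of GRCm38.p6, with no other measured gene between them. The other members of the cluster did not share the shift of Scd2. Scd3, known mainly from skin and other gland-rich tissue, had a log2 value of 3.20 ± 0.16 in knockout livers and 3.33 ± 0.16 in control livers (SD), a difference of -0.13 ± 0.07 (SE). Scd4, known from heart, had 2.87 ± 0.11 in knockout livers and 2.91 ± 0.11 in control livers (SD), a difference of -0.04 ± 0.05 (SE). Both lay under the table's median of 3.75 in every liver, where values can be close to background. The desaturases are closely related paralogs, and the probe sequences were not used here, so a signal shared between them could not be measured directly.

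Among the elongases of saturated and monounsaturated chains, Elovl6, which takes palmitate to stearate and so makes the substrate of the desaturases, had lowest, median and highest log2 values of 8.08, 8.82 and 9.31 in knockout livers and 7.71, 9.08 and 10.25 in control livers. The knockout livers lay inside the range of the controls. The mean was 8.79 ± 0.38 in knockout livers and 9.23 ± 0.73 in control livers (SD), a difference of -0.47 ± 0.20 (SE). It was -0.77 ± 0.25 in run 2, where only the controls reached above 9.31, and -0.08 ± 0.29 in run 1.

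Elovl3, an elongase of very long saturated and monounsaturated chains that is known from skin, brown fat and liver and varies with the time of day, had the widest spread of the elongases in both genotypes. Its lowest, median and highest log2 values were 2.92, 3.28 and 7.57 in knockout livers and 3.72, 4.94 and 6.49 in control livers. In knockout livers 6 values lay below the lowest control, while replicate 5, at 7.57, lay above the highest control and replicate 6 had 6.09. The share of all genes with 6 knockout livers below every control was not computed. The mean was 4.01 ± 1.57 in knockout livers and 5.21 ± 1.02 in control livers (SD), a difference of -1.20 ± 0.54 (SE). In run 1 the genotypes did not overlap, with 3.13 to 4.01 in knockout livers and 4.21 to 6.49 in control livers, and the difference was -2.37 ± 0.78. In that run 2.51% of all genes had every knockout liver below every control. In run 2, which held both high knockout livers, it was -0.32 ± 0.67. Without knockout replicate 5 the difference over both runs was -1.59, and without replicate 6 it was -1.43.

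Elovl7, another elongase of long saturated chains, was low in control livers, with lowest, median and highest log2 values of 3.12, 3.996 and 4.82 in knockout livers and 3.37, 3.43 and 3.61 in control livers. No knockout liver lay within the control range, a pattern whose share over all genes was not computed. Replicates 3, 4, 7, 8, 9 and 10 lay between 3.77 and 4.82, above every control, and replicates 1, 2, 5 and 6 lay between 3.12 and 3.34, below every control. The mean was 3.92 ± 0.68 in knockout livers and 3.46 ± 0.08 in control livers (SD), so that the SD of the knockout livers was 8.07 times that of the controls, and the difference was 0.46 ± 0.20 (SE). The 4 low knockout livers and all controls lay under the table's median, so the size of the difference between them is uncertain.

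Elovl1, which lengthens saturated and monounsaturated chains for ceramides and is expressed in most tissues, had 7.60 ± 0.20 in knockout livers and 7.47 ± 0.34 in control livers (log2, SD). Its difference was 0.11 ± 0.09 (SE), with 0.30 in run 1 and -0.03 in run 2.

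The elongases of polyunsaturated chains are Elovl5, which acts early on the shorter chains, and Elovl2, which acts on the longer ones. Elovl2 had lowest, median and highest log2 values of 10.69, 11.06 and 11.47 in knockout livers and 10.03, 10.74 and 11.22 in control livers. Its mean was 11.04 ± 0.21 in knockout livers and 10.71 ± 0.35 in control livers (SD), a difference of 0.32 ± 0.12 (SE), with 0.45 in run 1 and 0.22 in run 2. In 9 of 10 knockout livers the value exceeded the mean of the controls in the same run. Elovl5 had 11.87, 11.99 and 12.34 in knockout livers and 11.85, 12.23 and 12.46 in control livers, with means of 12.01 ± 0.13 in knockout livers and 12.15 ± 0.19 in control livers (SD). The Elovl5 difference was -0.14 ± 0.07 (SE), with -0.03 in run 1 and -0.22 in run 2, and in 9 of 10 knockout livers the value was under the mean of the controls in the same run. The ranges of the genotypes overlapped for both genes.

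Because Elovl2 and Elovl5 varied together inside the groups, their promoter windows are shown, from 250 bases before to 50 bases after the annotated start in RefSeq GRCm38.p6, 5′ to 3′ on the strand of the gene. Capitals mark the letters of motifs searched on both strands. These were the CCAAT box (CCAAT), the GC box (GGGCGG), the E-box (CACGTG), the sterol element (TCACNCCAC) and the TATA box (TATAAA), and none of them overlapped in these windows. The Elovl5 window is chr9:77917115-77917414 on the plus strand and the Elovl2 window, the first of 2 in the table, is chr13:41220354-41220653 on the minus strand.
Elovl5: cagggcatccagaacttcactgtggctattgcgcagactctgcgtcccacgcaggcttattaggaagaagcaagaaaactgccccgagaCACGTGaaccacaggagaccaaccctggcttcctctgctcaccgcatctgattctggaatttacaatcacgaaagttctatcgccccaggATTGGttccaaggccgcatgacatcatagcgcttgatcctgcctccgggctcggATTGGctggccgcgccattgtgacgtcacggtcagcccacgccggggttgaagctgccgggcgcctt
Elovl2: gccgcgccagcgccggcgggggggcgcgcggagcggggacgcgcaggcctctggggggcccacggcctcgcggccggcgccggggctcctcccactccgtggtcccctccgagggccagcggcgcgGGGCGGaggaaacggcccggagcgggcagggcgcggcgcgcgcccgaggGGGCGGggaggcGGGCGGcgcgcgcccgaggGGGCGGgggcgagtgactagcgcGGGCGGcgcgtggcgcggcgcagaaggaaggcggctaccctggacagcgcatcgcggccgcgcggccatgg
The windows shared none of these motifs. The Elovl5 window, of 57.7% G and C, held the CCAAT box at 2 positions, both on the other strand, and the E-box once. The Elovl2 window, of 84.7% G and C, held the GC box at 5 positions. Of 32851 promoter windows in the table, 37.4% held the CCAAT box, 35.7% the GC box, 7.15% the E-box, 1.24% the sterol element and 13.6% the TATA box, and the median share of G and C was 52.7%. Windows were found for 7 of the 10 genes (Elovl1, Elovl2, Elovl5, Elovl6, Elovl7, Scd3 and Scd4), and the sterol element and the TATA box were in none of the 7. A match of letters describes the sequence only.

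**Figure D3:**
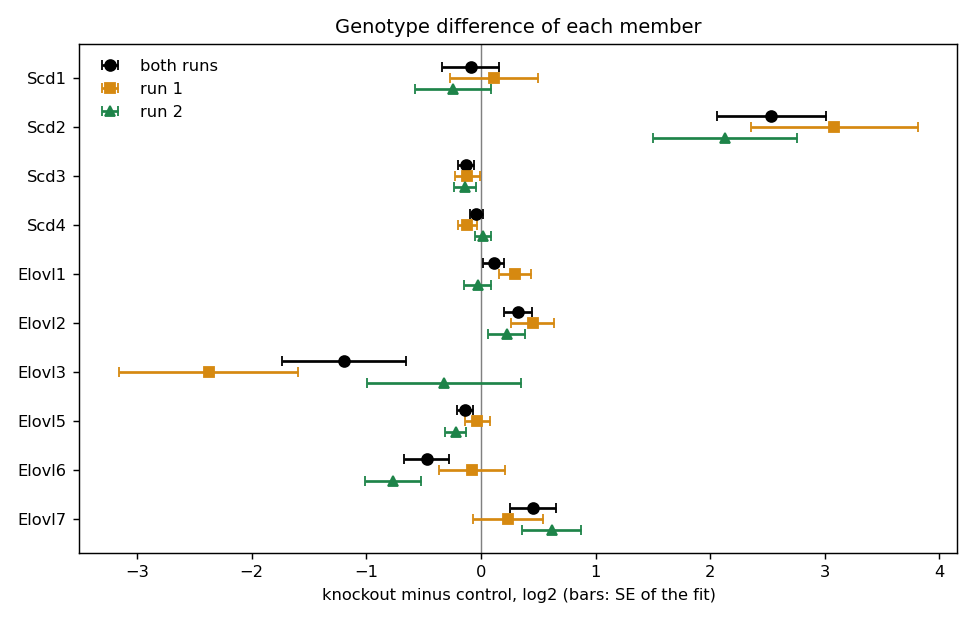
Difference between knockout and control livers in log2 RMA signal for each gene (bars, SE of the fit), over both runs (black), in run 1 (orange) and in run 2 (green). Scd2 lies at 2.53, Elovl3 lies at -2.37 in run 1 and -0.32 in run 2, and the other genes lie between -0.77 and 0.62 in every fit shown.

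In the fit across all genes (limma with the run as a term, p-values adjusted by Benjamini-Hochberg over 25428 genes, threshold 0.05), 3.28% of all genes were higher in knockout livers and 4.05% were lower. Of the 10 desaturases and elongases, Scd2 was past the threshold on the higher side, none was past it on the lower side and 9 were not past it. In run 1 alone Scd2 was not past the threshold either. Nothing is read from this count, since the genes were chosen with the contrast known. Their median difference was -0.06, against -0.01 over all genes. None of the 10 had every knockout liver above every control or every knockout liver below every control, a separation met by 0.0905% and 0.0393% of all genes.

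The genotype differences within each run were also known when the genes were chosen, so their contrast between the runs is given as a description. The run 2 difference minus the run 1 difference was 2.05 ± 1.03 for Elovl3, -0.95 ± 0.96 for Scd2 and -0.69 ± 0.38 for Elovl6 (log2, SE). In the fit across all genes 0.0315% passed a test of this contrast (2606 genes had an unadjusted p under 0.05), and none of the 10 genes did, from which nothing is read.

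The controls alone showed how far these genes moved with no deletion. Their contrast between the runs was not used to choose the genes. The same control values did enter the genotype differences that were known, so the calls below are not independent of that choice. Between the runs, 5.07% of all genes differed in control livers, and 2 of the 10 genes did. Elovl6 averaged 9.68 ± 0.48 in controls of run 2 and 8.68 ± 0.59 in controls of run 1 (log2, SD, n = 6 and 5), a difference of 0.997 ± 0.26 (SE; limma, adjusted p = 0.027). Its control values ran from 9.08 to 10.25 in run 2 and from 7.71 to 9.08 in run 1. Elovl1 averaged 7.69 ± 0.14 in controls of run 2 and 7.20 ± 0.30 in controls of run 1, a difference of 0.49 ± 0.12 (SE; adjusted p = 0.021). The call of Elovl6 was lost without control replicate 4, 5, 7, 8 or 11 (adjusted p between 0.054 and 0.089), and that of Elovl1 without control replicate 1, 4, 6 or 7 (adjusted p between 0.0503 and 0.076). In knockout livers Elovl6 was 0.31 ± 0.28 higher in run 2 than in run 1 and Elovl1 0.17 ± 0.13 higher, values that missed the threshold (adjusted p = 0.75 and 0.70). Scd1 and Scd2 of the controls were 0.63 ± 0.35 and 0.99 ± 0.66 higher in run 2, and neither passed (adjusted p = 0.40 and 0.52).

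Within the groups, some of the genes varied together from liver to liver. Each value was taken as its distance from the mean of its genotype and run, and Pearson's r was computed over the 21 livers for the 45 pairs of the 10 genes, as a description, since all livers of a run share its conditions and all arrays were normalised to the same distribution. Scd1 and Scd2 varied together (r = 0.68, Spearman's rho = 0.67), with 0.91 in knockout livers and 0.64 in control livers, and with 0.59 without the 2 livers farthest from the middle on Scd1. A liver with more Scd1 than its group thus tended to have more Scd2, although the genotypes differed by 2.53 in Scd2 and by -0.09 in Scd1. Elovl2 and Elovl5 varied together (r = 0.59, rho = 0.59), with 0.69 in knockout livers and 0.56 in control livers, and 0.79 without 2 livers.

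Elovl3 ran against Scd2 (r = -0.62, rho = -0.63), with -0.61 in knockout livers and -0.65 in control livers, and with -0.67 in run 1 and -0.74 in run 2. The knockout livers with the highest Elovl3, replicates 5 and 6, had Scd2 values of 8.13 and 8.70, and the knockout livers with the highest Scd2, replicates 4 and 10, had Elovl3 values of 3.15 and 3.09. Elovl7 and Scd2 had r = 0.66 in knockout livers and -0.23 in control livers, where Elovl7 hardly varied. Of the 4 knockout livers of low Elovl7, replicates 2, 5 and 6 were also among the 4 of lowest Scd2. The sets differed in replicate 1, of low Elovl7 with an Scd2 of 9.83, and replicate 9, of high Elovl7 with an Scd2 of 8.66. The inverse relation of Scd1 and Elovl2 (r = -0.59) rested on 2 livers, without which it was -0.12.

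The genes whose within-group variation was most like that of each main member were searched among 12261 other named genes with a mean above the table's median, and such extremes of a large search are larger than a single relation would be. For Scd1 they were 1810008I18Rik (r = 0.87), Acss2, which makes acetyl-CoA from acetate in the cytosol (0.86), Bin3 (0.82), the choline transporter gene Slc44a1 (0.81) and the acyl-CoA synthetase gene Acsl5 (0.80), and the lowest were Reep6, Tspan31 and Adap2 (-0.77, -0.77 and -0.75). These 3 rested largely on the 2 livers farthest from the middle on Scd1, without which they were -0.45, -0.48 and -0.46, and Bin3 had 0.91 in run 1 and 0.36 in run 2. For Scd2 they were Dst (0.85), Acmsd, an enzyme of tryptophan breakdown (0.84), Gldn (0.83), Sptlc2, a subunit of the enzyme that starts sphingolipid synthesis (0.83), and the folate enzyme gene Aldh1l1 (0.82). Acmsd had 0.97 in knockout livers and 0.29 in control livers, and Gldn had 0.93 in knockout livers and 0.30 in control livers. For Elovl3 they were the lipid phosphatase gene Mtm1 (0.84), Cadm4 (0.84), Chpt1, an enzyme of phosphatidylcholine synthesis (0.81), the mitochondrial chaperonin gene Hspe1 (0.81) and the cytochrome P450 gene Cyp2c54 (0.80), and the lowest were Jpt2, Kcnk6 and Dhrs9 (-0.80, -0.80 and -0.79). Mtm1 had 0.21 in run 1 and 0.92 in run 2. For Elovl6 they were the homeobox gene Meis1 (0.84), Slc25a44 (0.81), Adamts10 (0.80), Lnx1 (0.80) and 1700045H11Rik (0.79), and the lowest were Dnajc25, Olfr1373 and Jtb (-0.80, -0.78 and -0.77).

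The tightest relations of Scd2 had the opposite sign. Cpt2, the carnitine palmitoyltransferase that delivers fatty acids to mitochondrial oxidation, had r = -0.96 with Scd2 (rho = -0.96), with -0.98 in knockout livers and -0.90 in control livers, -0.96 in run 1 and -0.95 in run 2, and -0.93 without the 2 livers farthest from the middle on Scd2. Retsat, the retinol saturase gene, had r = -0.91 and Lonp2, the peroxisomal Lon protease gene, had r = -0.90. Cpt2 averaged 8.81 ± 0.35 in knockout livers and 9.14 ± 0.16 in control livers (log2, SD), a difference of -0.33 ± 0.11 (SE; limma, adjusted p = 0.073), which missed the threshold.

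**Figure D4:**
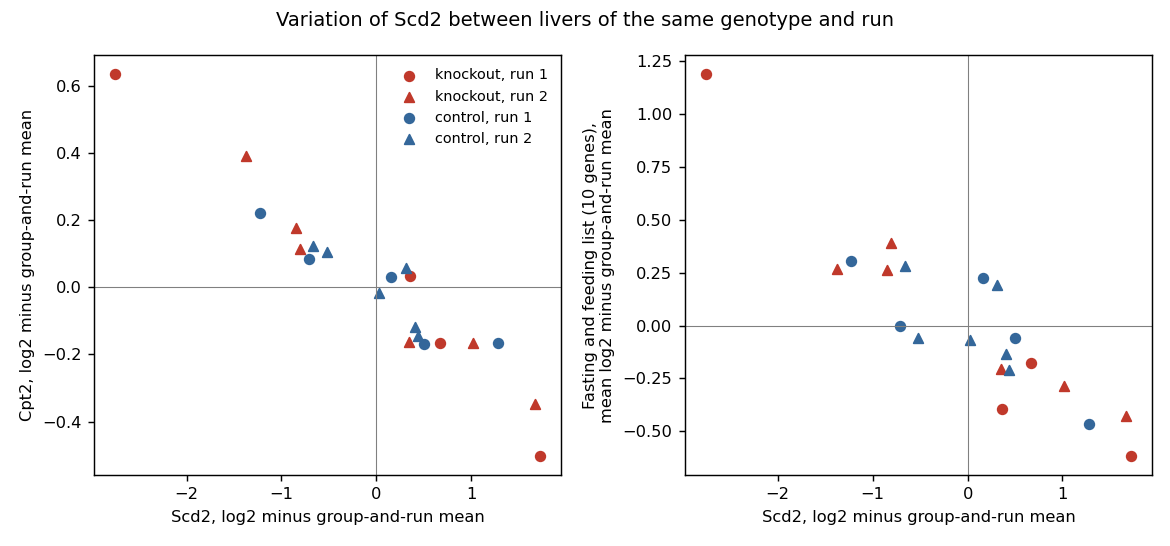
Cpt2 (left) and the mean of 10 genes that respond to fasting and feeding (right) against Scd2, each as log2 RMA signal minus the mean of its genotype and run, 1 point per liver, with red for knockout and blue for control livers. Points fall along descending lines, with r = -0.96 for Cpt2 and -0.91 for the gene list, which was -0.48 without Cyp4a10 and Cyp4a14.

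The fatty acid hydroxylase genes Cyp4a14 and Cyp4a10, targets of the nuclear receptor PPARα that are known to rise in fasting, ran against Scd2, each with r = -0.80. In knockout livers r was -0.88 for Cyp4a14 and -0.87 for Cyp4a10, and in control livers it was -0.46 and -0.45. Over all livers Spearman's rho was -0.68 and -0.61. Both genes belong to a list of 10 measured genes that respond to fasting and feeding. The list holds genes known to rise in fasting and genes known to fall, such as Pklr, so that its mean has no single direction. That mean had r = -0.91 with Scd2 (rho = -0.90), with -0.94 in run 1 and -0.87 in run 2. Without the Cyp4a genes, left out after seeing the data, the mean of the other 8 had r = -0.48 (rho = -0.49). Gene by gene, Fgf21 had -0.66, Angptl4 -0.59, Pck1 -0.35, Pklr -0.32 and Pdk4 -0.28, while Irs2, Igfbp1 and G6pc had -0.04, -0.02 and 0.02. With all 10 genes the list had r = -0.59 with Scd1 and 0.50 with Elovl3 (rho = 0.70). Its mean level was 7.82 to 9.77 in knockout livers and 8.81 to 9.67 in control livers, and knockout replicate 2, the knockout liver of lowest Scd2, had the highest list level of all 21 livers, while the other knockout livers lay below every control. Without the Cyp4a genes the levels overlapped, with 8.13 to 9.22 in knockout livers and 8.42 to 9.86 in control livers. Between the genotypes 4 of the 10 genes were lower and none was higher. By smallest p these were G6pc (-0.58 ± 0.12, SE), Cyp4a14 (-3.00 ± 0.70) and the pyruvate kinase gene Pklr (-0.67 ± 0.16), with a median of -0.67 over the list. The fasting state and hour of collection are not in the labels, and their part in the Scd2 difference was not tested. Clock genes, 13 measured, had none past the threshold in either direction, with levels of 5.69 to 6.13 in knockout livers and 5.98 to 6.41 in control livers. Their differences ran from -0.55 to 0.41, with 3 of the 13 positive and a median of -0.13. The mean level of the list was 5.98 in knockout livers and 6.13 in control livers. As the signs were mixed, this mean does not describe each gene. Whether the hours of collection were alike was not tested.

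Markers of several cell types also moved with genotype, beside the Scd2 difference. Of the measured markers of continuous capillaries 7 of 9 were higher in knockout livers, with list levels of 4.96 to 5.68 in knockout livers and 4.26 to 4.72 in control livers, and the smallest p belonged to Esm1 (2.05 ± 0.25, log2, SE), Col4a1 (0.88 ± 0.11) and Col4a2 (0.63 ± 0.08). Macrophage markers had 7 of 13 higher, with levels of 6.26 to 6.85 in knockout livers and 5.31 to 6.95 in control livers. Stellate cell markers had 5 of 11 higher (6.11 to 6.65 in knockout livers, 5.61 to 6.45 in control livers), and B, T and NK cell markers had 6 of 12 higher (4.58 to 5.44 in knockout livers, 3.96 to 4.89 in control livers). Neutrophil markers had 1 of 10 higher (3.31 to 8.46 in knockout livers, 3.03 to 3.24 in control livers), and markers of dividing cells had 2 of 9 higher. Sinusoidal endothelial markers had 6 of 10 lower (6.01 to 6.77 in knockout livers, 6.36 to 7.30 in control livers).

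Hepatocyte markers had none of 9 past the threshold, with levels of 11.9 to 12.1 in knockout livers and 11.7 to 12.1 in control livers, and cholangiocyte markers had none of 7 (3.50 to 4.52 in knockout livers, 3.37 to 3.83 in control livers). Of 9 adipocyte markers only Fabp4, which capillary endothelium and macrophages also express, was higher (1.84 ± 0.32, log2, SE), and Adipoq was at 2.73 in both genotypes, under the table's median. Within the groups Scd2 had r = 0.59 with the continuous capillary list, 0.51 with the stellate list, 0.45 with the hepatocyte list, 0.13 with the macrophage list and -0.08 with the neutrophil list. In run 1 and run 2 these were 0.84 and 0.46 (continuous capillary), 0.77 and 0.19 (stellate) and 0.49 and 0.44 (hepatocyte). They were 0.19 and 0.01 for the macrophage list and 0.41 and -0.41 for the neutrophil list. The part of these cells in the Scd2 difference was not tested.

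The other genes of the route were taken from 6 lists, with 58 of 62 listed genes measured. Of these 4 (6.90%) were higher and 6 (10.3%) lower in knockout livers, against 3.28% and 4.05% over all genes, and their median difference was -0.08 against -0.01 over all genes. Of 12 genes that supply acyl-CoA, 4 were lower and none was higher, with a median of -0.34. Me1, the malic enzyme that yields NADPH for synthesis, was 8.84 ± 0.39 in knockout livers and 9.77 ± 0.51 in control livers (log2, SD), a difference of -0.96 ± 0.15 (SE; limma, adjusted p = 0.0013). Thrsp, a lipogenic protein, differed by -0.71 ± 0.15 (adjusted p = 0.0087), its relative Mid1ip1 by -0.35 ± 0.10 (adjusted p = 0.031) and Acacb, the mitochondrial acetyl-CoA carboxylase, by -0.82 ± 0.24 (adjusted p = 0.041). Fasn, the fatty acid synthase, and Srebf1, a sterol response factor, were picked for mention after their values were seen, and did not pass (-0.60 ± 0.20, adjusted p = 0.067, and -0.46 ± 0.19, adjusted p = 0.15). The Srebf1 difference was 0.12 in run 1 and -0.89 in run 2.

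Around the desaturation step itself, Cyb5b, a cytochrome b5 of the mitochondrial outer membrane, was the only 1 of 6 electron supply genes past the threshold (-0.43 ± 0.10, log2, SE; limma, adjusted p = 0.012). Among 6 other desaturases Fads2, which acts on polyunsaturated chains, was higher by 0.26 ± 0.08 (adjusted p = 0.048), and all 6 had positive differences. Of 8 further enzymes of the elongation cycle, Hacd4, a dehydratase, was higher by 0.38 ± 0.09 (adjusted p = 0.013), from means of 3.48 in knockout livers and 3.09 in control livers that lie under the table's median. Of 15 regulators Rxra, the partner of many lipid-sensing nuclear receptors, was higher by 0.14 ± 0.04 (adjusted p = 0.046). Of 11 genes that use acyl-CoA, Gpam, the mitochondrial glycerol phosphate acyltransferase, differed by -0.60 ± 0.16 (adjusted p = 0.023) and Mboat7, which puts arachidonate into phosphatidylinositol, was higher by 0.48 ± 0.11 (adjusted p = 0.012). Leaving out any 1 of 21 livers ended no call of Me1, Thrsp, Cyb5b, Hacd4, Gpam or Mboat7, but the call of Fads2 was lost in 16 of these fits, that of Rxra in 17, that of Acacb in 13 and that of Mid1ip1 in 6 (adjusted p up to 0.086, 0.084, 0.075 and 0.062).

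**Figure D5:**
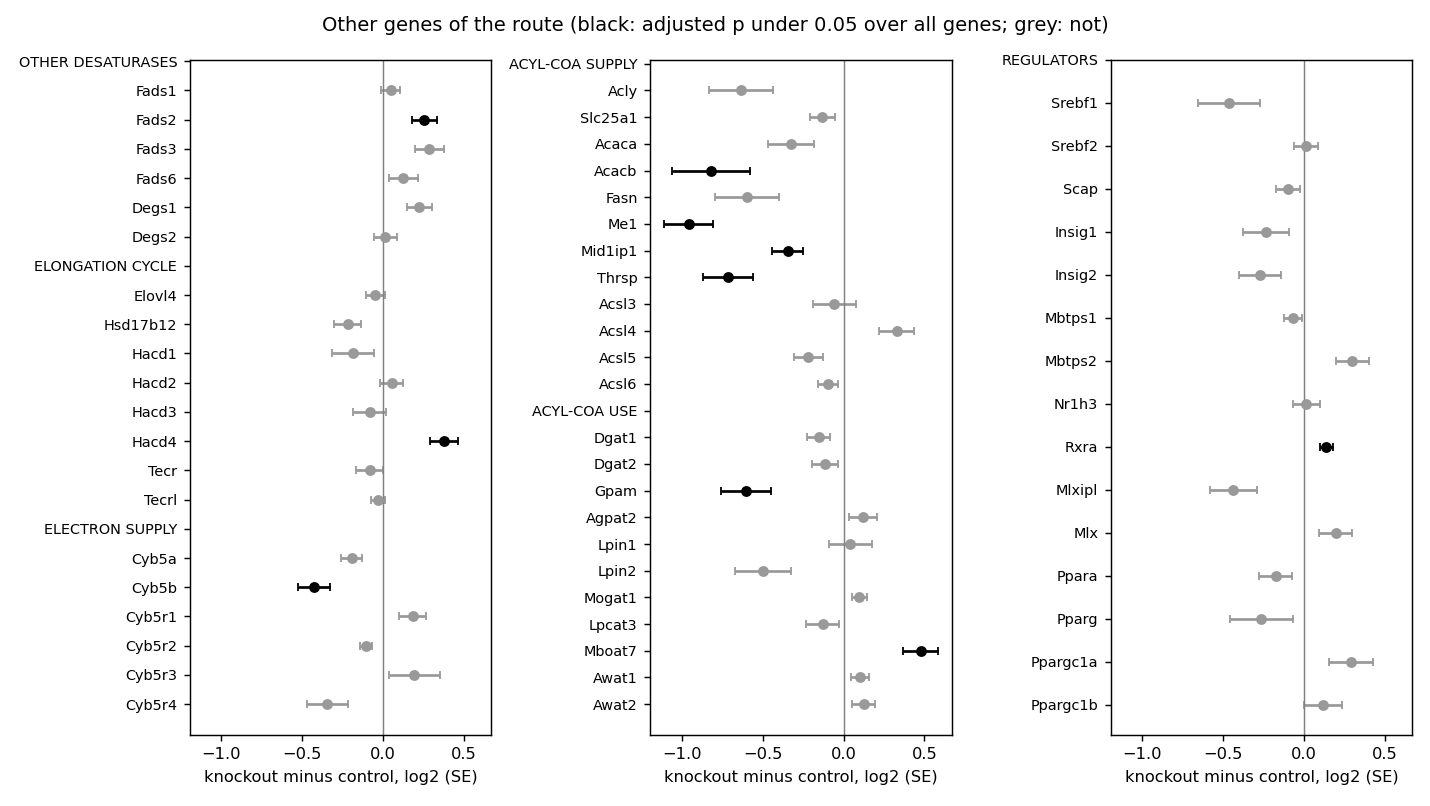
Difference between knockout and control livers in log2 RMA signal (bars, SE) for the 58 measured genes of the 6 lists, in black where the adjusted p over all genes was under 0.05. Me1 at -0.96, Acacb at -0.82, Thrsp at -0.71 and Gpam at -0.60 lie lowest among the black points, and Mboat7 at 0.48 lies highest.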

How the data were processed

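Per the labels, RNA of 21 whole livers was biotinylated and put on Affymetrix arrays, 1 per animal. The values the authors deposited are on the log2 scale and come from RMA, per the submitters' processing notes. That method subtracts background, brings arrays to 1 distribution and combines the probes of a gene, and it left the sorted values of all arrays equal within 0.0019. The array type is not given in the sources used here, nor are the build and the RMA version. Scanner files were not used, so depth and background per probe are unknown, and the number of arrays limits the precision. The median SE of a genotype difference was 0.078.

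Of 25428 table entries, each for 1 Entrez gene, 24705 had a symbol in the platform annotation and 723 stayed unnamed. All were tested without a filter by limma 3.58.1 in R 4.3.3 (lmFit, eBayes) with genotype and run as terms, and p-values were adjusted by Benjamini-Hochberg with a threshold of 0.05. The interaction and the control runs came from a fit of the 4 combinations of genotype and run. The p-values measure the spread between animals as labelled.

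The members, the gene lists and the tests were chosen with earlier results of these data known. Named were all members, every called gene of a pathway list, up to 3 called genes of a marker list, Gata4, and for Scd1, Scd2, Elovl3 and Elovl6 the 5 genes of highest and 3 of lowest correlation. Fasn, Srebf1, Adipoq, the other genes of the fasting and feeding list, Xist and the Y-linked genes were named beyond this rule. Of the listed genes 17 had no named entry. Alternatives were no run term, each run alone, a replicate block, a second quantile normalization, median centring, a filter on low values, an intensity trend with a robust prior, array weights, each array left out, and, added later, the fit without 2 arrays. Dixon's ratio was used to find outlying values among the 10 knockout livers. Replicate numbers shared between genotypes were not treated as pairs in the main fit. The correlation of their deviations was over 0.1 for 1 of 9 numbers, which cannot show that littermates were absent. Pairings by sample order were not checked.

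Tested on simulated data of 25428 genes, the genotype fit recovered 78% of changes of 0.5 and 99% of changes of 1 with 11 false calls, and the interaction recovered 76% of changes of 1 and 96% of changes of 2 with 5 false calls. The genotype differences of Scd2 and Elovl3 had SEs of 0.47 and 0.54, against a median of 0.078 over all genes. These rates need not hold for genes that vary so much. Promoter windows were read from a RefSeq table with Python 3.11.15, and figures were drawn with matplotlib 3.10.9.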

Additional observations from a re-analysis of the deposited data

Results flagged for a closer look

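In 4 of the 10 genes, 1 knockout liver stood apart from the other 9 by more than Dixon's 95% critical value for a group of 10, where chance gives about 1 in 20 groups. Knockout replicate 2 accounted for 3 of them. Its Scd1, at a log2 value of 11.41, was the lowest of the knockout livers (gap over range 0.568), its Elovl1, at 7.18, was the lowest (0.4663, over the critical value only in the fourth digit), and its Elovl5, at 12.34, was the highest (0.544). The same liver had the lowest Scd2 of the knockout livers, at 6.72, which did not pass that criterion (0.316). Scd4 was highest in knockout replicate 9, at 3.14 (0.529), under the table's median. These ratios pool the knockout livers of both runs. On values taken from the mean of each run they were 0.397 for Scd1, 0.280 for Elovl1, 0.462 for Elovl5 and 0.447 for Scd4, and none of the 10 genes exceeded the critical value. Control livers, of which there were 11, were not examined in this way.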

How the results depend on the processing

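The Scd2 difference stayed between 2.13 and 3.08 (log2) over 31 alternatives and the shift of Scd2 minus Scd1 between 2.37 and 2.97 over 26. Of the members, 1 was called higher, but 0 in run 1 alone, where Scd2 stood at 3.08 with 4 knockout and 5 control livers, and 1 to 2 with each liver left out (Elovl2 added without control replicate 5). The count of members called lower was 0 to 1 with each liver left out (Elovl6 without control replicate 4, Elovl3 without knockout replicate 5). The members were chosen with this contrast known, so nothing is read from these counts. Members that differed between runs in controls numbered 0 to 2 with each liver left out, with 0 without control replicate 4 or 7 and 1 without control replicate 1, 5, 6, 8 or 11. No member passed the interaction in any of 27 alternatives, from which nothing is read either. Pathway genes called higher numbered 2 without the run term, 0 in run 1, 0 in run 2 and 2 to 6 with each liver left out (2 without knockout replicate 1, 4, 8, 9 or 10 or control replicate 2, 4, 7 or 8, against 4). Those called lower numbered 2 without the run term, 0 in run 1, 3 with the replicate block and 4 to 10 with each liver left out (10 without control replicate 5, against 6). With the replicate block the Scd2 difference was 2.62. Without knockout replicate 6 and control replicate 3, the arrays least like their groups, an alternative chosen after seeing the data, the Scd2 difference was 2.76. Scd3, Scd4 and Elovl7 drop out of the table when low values are filtered, and signal near background limits what can be said of them.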
